A study of Phaffia rhodozyma with 6 samples.

Results

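The genes described here encode the subunits of RNA polymerases I, II and III of the astaxanthin-producing yeast Phaffia rhodozyma. They were taken as every gene that the deposited annotation places on the KEGG map of RNA polymerase, and 29 of 6249 genes met that rule. The Gene Ontology (GO) terms of the same annotation put 5 of them in RNA polymerase I only, 8 in the RNA polymerase II core only and 6 in RNA polymerase III only, with 2 shared by I and III and 5 shared by all the enzymes. The other 3 carried none of these GO terms and were placed in RNA polymerase III by their descriptions. Subunit names follow the KEGG ortholog of each gene and the naming of Saccharomyces cerevisiae, and the number beside a name is the gene number of the annotation.

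The S group was 3 libraries of strain AS2.1557 cells given 0.5 mg/L of the plant hormone salicylic acid (SA), and the C group was 3 libraries of the same strain given deionized water in its place. The cultures grew in YPD medium at 22 °C for 96 h, but no separate hour is given for the harvest of the cells used for RNA. The study compared the groups to learn how SA alters the transcriptome of this yeast. Transcript levels were deposited as FPKM, a fragment count scaled for transcript length and for the size of the library, so that levels of different genes may be set side by side. The study describes its experiments as repeated, without saying whether the libraries of a group came from separate cultures, and the p-values below therefore rest on a spread that could be technical. FPKM is a share of a library, and in bulk RNA a change in the number of cells or in the RNA per cell cannot be told apart from it.

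RNA polymerase I makes the large ribosomal RNA precursor, RNA polymerase II makes messenger RNA, and RNA polymerase III makes transfer RNA and the 5S ribosomal RNA. Each enzyme has a pair of large subunits that form its catalytic centre, a stalk of small subunits, and small subunits at its edge that serve assembly, initiation or cleavage of the RNA. A set of small subunits is common to all the enzymes.

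Messenger RNA of most subunits was higher in the SA-treated libraries as deposited. The subunits with a negative log2 fold change were the large catalytic ones of RNA polymerase II, which were also the most abundant subunit messages. In limma fits to log2(FPKM + 0.1) over 6113 tested genes, 22 of 29 subunit genes were higher in S at a limma adjusted p under 0.05, against 19.9% of all tested genes, and 0 were lower, against 3.03% of all tested genes. All 29 passed the limit on low values. At an unadjusted limma p under 0.05 the count was 25, and all 25 had a higher level in S. Over all tested genes 2303 of 6113 passed that limit in either direction. Every S library lay above every C library for 25 of 29 genes, against 36.1% of all tested genes. The median log2 fold change was 0.58 for the subunits and 0.21 for all tested genes.

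That comparison moved with the scaling of the libraries. The median FPKM of the tested genes was 29.2, 31.3 and 32.0 in S1, S2 and S3, against 26.3, 26.4 and 23.6 in C1, C2 and C3. Every S library thus had a higher median than every C library. Centring each library on its median lowered all log2 fold changes by 0.28. With that centring 9 subunit genes were higher, against 7.26% of all tested genes, and 3 were lower, against 15.3% of all tested genes. With quantile normalization 10 were higher, against 6.61% of all tested genes, and 0 were lower, against 8.47% of all tested genes. Leaving out S2 also lowered the count of higher subunit genes, to 9. Over all tested genes that fit called 501 of 6103 higher, so the fall was not particular to the subunits. The subunits higher under all 3 scalings numbered 7, namely Rpb6, Rpb8, Rpb10, Rpb7, Rpb9, Rpb11 and Rpc25. With the values as deposited all 7 were also called whichever library was left out. The matching counts over all tested genes were not taken, so how unusual these 7 are is not known. With centred libraries, leaving out S2 left 0 of the 29 genes called higher, and leaving out S1, S3 or C2 left 1. Calls over all tested genes were not counted in those fits.

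**Figure D1:**
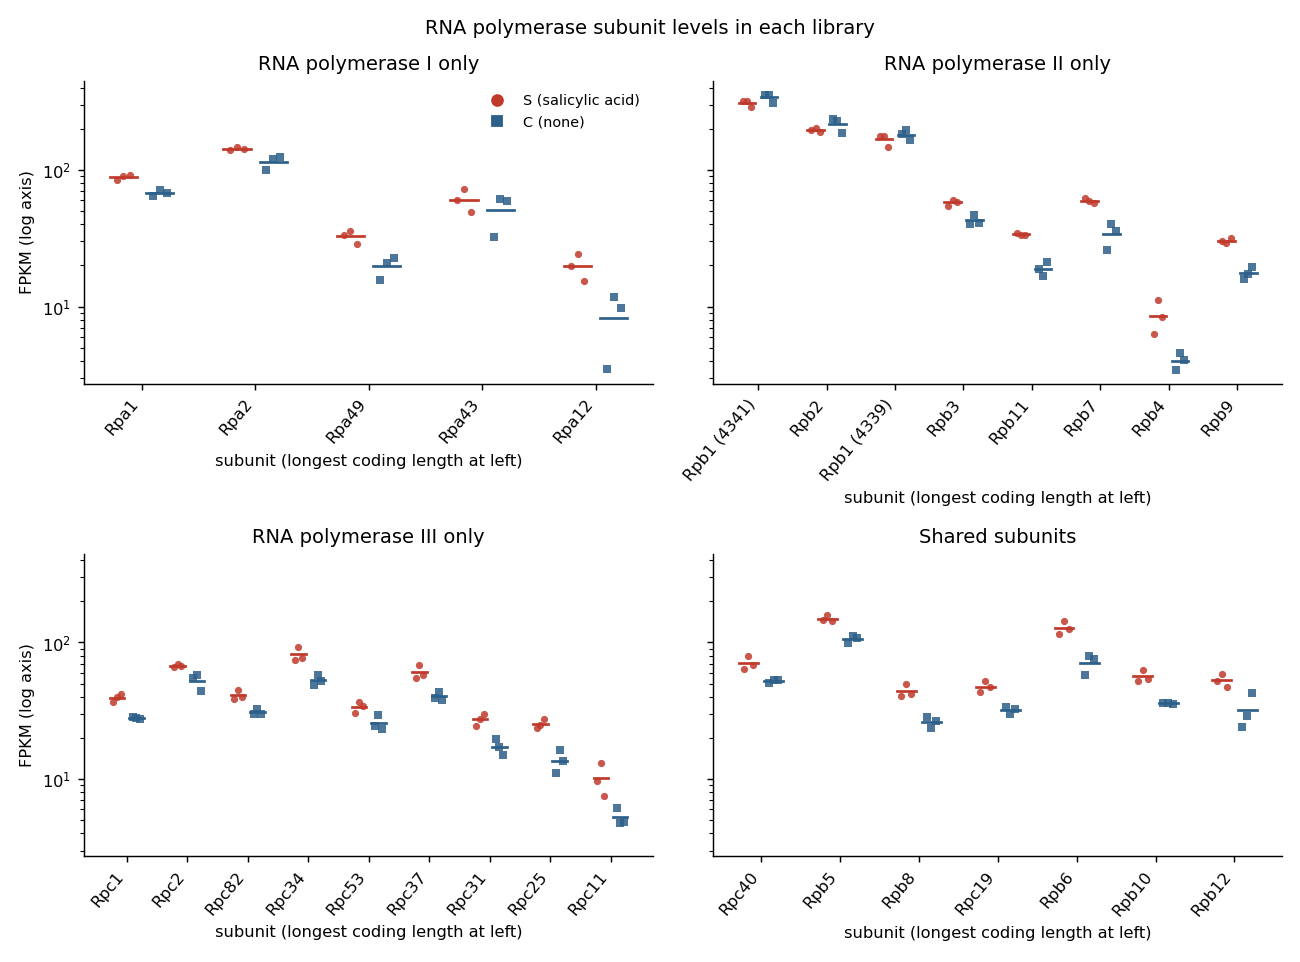
FPKM of each of the 29 subunit genes on a log axis, with 1 point per library, S libraries to the left of C libraries, and a bar at each group mean. The groups overlap for the Rpb1 rows, Rpb2 and Rpa43, while 25 genes have every S point above every C point.

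Among the subunits found only in RNA polymerase I, 3 of 5 were higher in S, against 19.9% of all tested genes, and the median log2 fold change was 0.39. Rpa1 (gene 9209), the largest subunit, had 84.1, 91.0 and 92.3 FPKM in S and 64.5, 71.5 and 68.2 FPKM in C. The groups did not overlap, and the log2 fold change was 0.39 (SE 0.10, limma adjusted p = 0.0231). Rpa2 (gene 7727), its catalytic partner, had 141, 146 and 143 FPKM in S and 99.6, 121 and 125 FPKM in C. Its groups did not overlap either, but its log2 fold change of 0.32 (SE 0.11) missed the threshold, with a limma adjusted p of 0.0554. The catalytic pair therefore lay on either side of the threshold with like sizes of difference, and their 95% intervals, 0.16 to 0.61 and 0.08 to 0.56, overlapped.

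The small subunits of RNA polymerase I differed more widely among themselves. Rpa12 (gene 8311), which in S. cerevisiae serves RNA cleavage, had 19.9, 24.2 and 15.5 FPKM in S and 3.51, 11.7 and 9.69 FPKM in C. C1 was far below the other C libraries, and the log2 fold change of 1.40 had the widest error of all the subunits (SE 0.38, limma adjusted p = 0.0268). Rpa49 (gene 10951), which in S. cerevisiae acts in initiation and elongation, had 33.7, 35.7 and 28.9 FPKM in S and 15.7, 20.8 and 22.7 FPKM in C. Its log2 fold change was 0.74 (SE 0.16, limma adjusted p = 0.0125). Rpa43 (gene 7043), the stalk subunit through which the S. cerevisiae enzyme meets its initiation factor, had 60.3, 72.4 and 49.4 FPKM in S and 32.1, 61.1 and 59.4 FPKM in C. These groups overlapped, and the difference of 0.30 (SE 0.24, limma adjusted p = 0.39) became -0.0056 without C1. With libraries centred on their median, 0 of these 5 genes passed, at a limma adjusted p of 0.0805 for Rpa12, and the same count was reached with quantile normalization or without S2.

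The rows of the RNA polymerase II core did not all move alike. Of its 8 rows, 5 were higher in S, against 19.9% of all tested genes, and the 3 that were not are the catalytic ones. Rpb1, the largest subunit and the carrier of the C-terminal repeat domain, is annotated as 2 rows with the same KEGG ortholog. Both lie on the plus strand of contig LN483157.1, gene 4339 from 579749 to 582193 and gene 4341 from 582302 to 587394, with 108 bases between them. Their coding lengths, 1467 and 4104 bases, sum to 5571. The sources do not settle which genome assembly these contig names come from, and whether the rows are parts of 1 gene was not tested.

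The levels of the catalytic genes did not separate the groups. Gene 4341 had 320.3, 321 and 289 FPKM in S and 355, 355 and 308 FPKM in C, and gene 4339 had 177, 179 and 148 FPKM in S and 183, 195 and 165 FPKM in C. Rpb2 (gene 6989), the catalytic partner of Rpb1, had 197, 204 and 191 FPKM in S and 237, 229 and 187 FPKM in C. All 3 rows had overlapping groups and negative log2 fold changes, of -0.13 (SE 0.09, limma adjusted p = 0.336), -0.11 (SE 0.11, limma adjusted p = 0.477) and -0.13 (SE 0.11, limma adjusted p = 0.385). Their 95% intervals were -0.33 to 0.08 for gene 4341, -0.35 to 0.13 for gene 4339 and -0.37 to 0.10 for Rpb2. After centring, the same rows were lower in S, by -0.40, -0.39 and -0.41 on the log2 scale (limma adjusted p = 0.0222, 0.0407 and 0.0193). With quantile normalization they were at -0.15, -0.16 and -0.17 and not called (limma adjusted p = 0.26, 0.317 and 0.273). With centred libraries, 0 of the 29 subunit genes were called lower without S2, without S3 or without C2. Rpb2 was also called lower as deposited once C3 was left out (log2 fold change -0.24, limma adjusted p = 0.0478). The 3 rows were the most abundant subunit messages in both groups, so role and level cannot be told apart here. Gene 4341 and Rpb2 lie in the decile of tested genes with the highest mean FPKM, whose median log2 fold change was -0.065.

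The small subunits of RNA polymerase II were all higher as deposited, 4 of 5 after centring and 3 of 5 after quantile normalization or without S2. Rpb11 (gene 10481), which pairs with Rpb3 in the assembly platform of the enzyme, had 34.6, 33.6 and 33.5 FPKM in S and 18.9, 16.8 and 21.1 FPKM in C. The S libraries were nearly level, and the log2 fold change was 0.84 (SE 0.13, limma adjusted p = 0.00332). Rpb3 (gene 2891) had 54.6, 60.6 and 58.7 FPKM in S and 40.2, 47.0 and 40.8 FPKM in C, a log2 fold change of 0.44 (SE 0.11, limma adjusted p = 0.0226). Rpb11 was called under every scaling, while Rpb3 was called as deposited and had a limma adjusted p of 0.23 with libraries centred on their median.

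The stalk subunits Rpb4 and Rpb7 form a pair that is needed for initiation in S. cerevisiae. Rpb7 (gene 893) had 62.3, 59.3 and 57.2 FPKM in S and 26.1, 40.1 and 35.9 FPKM in C. Rpb4 (gene 4979) had 6.26, 11.1 and 8.37 FPKM in S and 3.42, 4.54 and 4.05 FPKM in C. These 2 genes differed widely in level but both were higher in S. The log2 fold changes were 0.83 (SE 0.16, limma adjusted p = 0.00708) for Rpb7 and 1.05 (SE 0.24, limma adjusted p = 0.0131) for gene 4979. Gene 4979 had the lowest mean level of the 29 subunit genes in both groups. Gene 6239, outside the map, is also described as Rpb4 and averaged 24.1 FPKM in S and 14.6 FPKM in C. The level of the Rpb4 message is therefore not settled. Rpb9 (gene 2663), which in S. cerevisiae serves start site choice and fidelity, had 30.3, 29.4 and 31.5 FPKM in S and 15.9, 17.2 and 19.4 FPKM in C. Its groups were far apart relative to their spread, and its log2 fold change was 0.80 (SE 0.13, limma adjusted p = 0.00413).

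**Figure D2:**
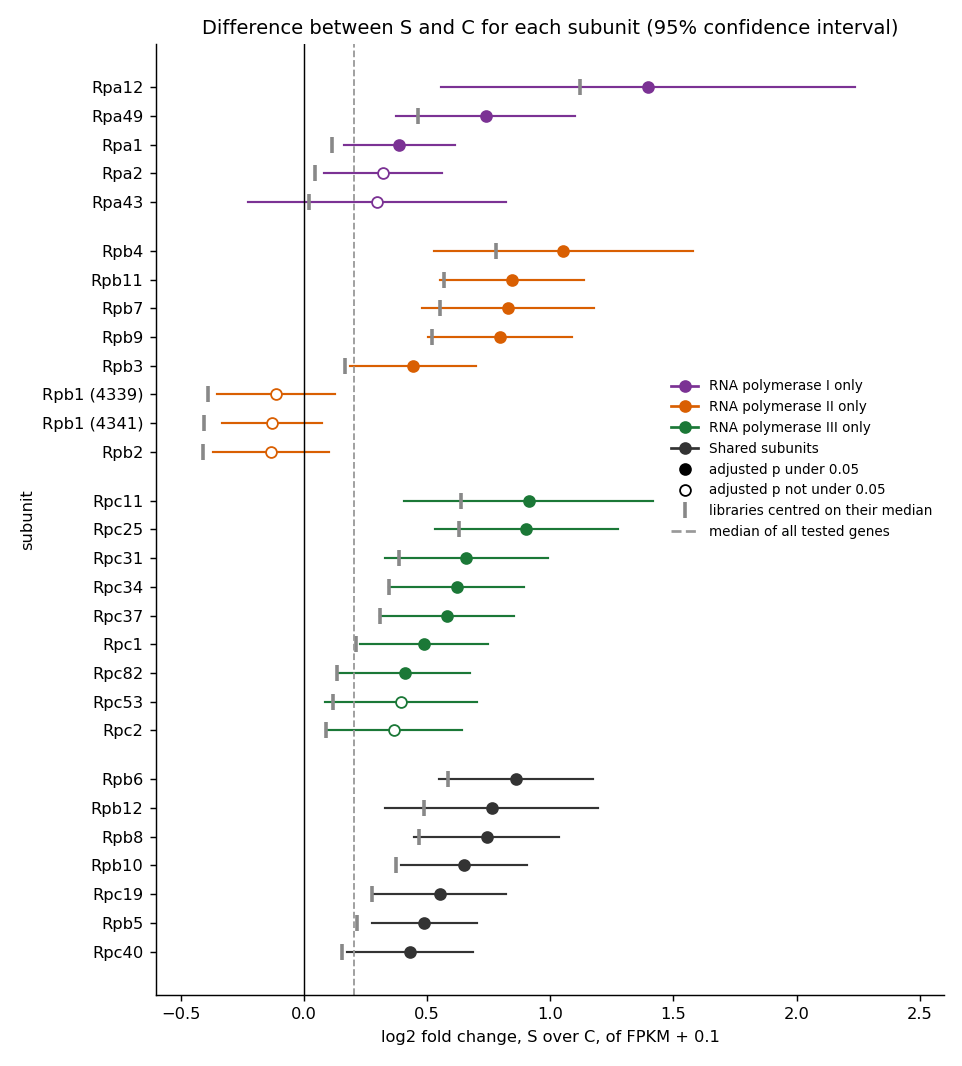
Log2 fold change of S over C for each subunit gene, with points and 95% intervals as deposited (filled where the limma adjusted p is under 0.05), a grey tick for the value with libraries centred on their median, and a dashed line at the median of all tested genes. As deposited, 22 of 29 genes are filled, and the 3 negative values belong to the Rpb1 rows and Rpb2.

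Every one of the 9 RNA polymerase III genes had all S libraries above all C libraries, against 36.1% of all tested genes, and 7 of 9 were called higher, against 19.9%. The median log2 fold change was 0.58. The calls fell to 2 of 9 after centring, to 3 with quantile normalization and to 2 without S2. Rpc1 (gene 12509), the largest subunit, had 36.4, 39.9 and 41.9 FPKM in S and 28.7, 28.0 and 27.5 FPKM in C. Rpc2 (gene 10915), its catalytic partner, had 66.0, 69.1 and 66.9 FPKM in S and 55.3, 57.9 and 44.2 FPKM in C. Rpc1 was higher by 0.49 on the log2 scale (SE 0.12, limma adjusted p = 0.0169), whereas Rpc2, at 0.37 (SE 0.12), missed the threshold (limma adjusted p = 0.0576) and passed it without C1.

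Rpc82, Rpc34 and Rpc31 form the initiation subcomplex of RNA polymerase III. Rpc34 (gene 8229) had 74.3, 93.3 and 77.4 FPKM in S and 48.7, 57.6 and 52.6 FPKM in C, a log2 fold change of 0.62 (SE 0.12, limma adjusted p = 0.00837). Rpc31 (gene 4345, placed by its description) was higher by 0.66 (SE 0.15, limma adjusted p = 0.0132), and Rpc82 (gene 10573) by 0.41 (SE 0.12, limma adjusted p = 0.0351). All 3 members were thus called as deposited, but Rpc82 lost its call whenever any library other than C3 was left out. Of the subunits that act in termination in S. cerevisiae, Rpc37 (gene 6055) averaged 60.4 ± 6.59 FPKM in S and 40.2 ± 2.99 FPKM in C (SD, n = 3 each) and was higher by 0.58 (SE 0.12, limma adjusted p = 0.0104). Its partner, the Rpc53-type gene 7179, averaged 33.7 ± 3.25 FPKM in S and 25.6 ± 3.21 FPKM in C, a difference of 0.39 (SE 0.14) that was not called (limma adjusted p = 0.0661). The larger differences were in the stalk subunit Rpc25 and in Rpc11, which serves RNA cleavage. Rpc25 (gene 11867) had 23.5, 25.0 and 27.5 FPKM in S and 11.0, 16.4 and 13.5 FPKM in C, a log2 fold change of 0.90 (SE 0.17, limma adjusted p = 0.00659). Rpc11 (gene 11461) had 9.76, 13.2 and 7.57 FPKM in S and 6.18, 4.75 and 4.83 FPKM in C, a log2 fold change of 0.91 (SE 0.23, limma adjusted p = 0.0196). After centring the calls left were Rpc25 and Rpc31, and the limma adjusted p was 0.128 for Rpc1, 0.0633 for Rpc34, 0.0623 for Rpc37, 0.0641 for Rpc11 and 0.356 for Rpc82. With quantile normalization the calls were Rpc25, Rpc34 and Rpc37 (limma adjusted p = 0.0429, 0.0364 and 0.0460). Rpc31 was not called there (limma adjusted p = 0.0544).

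All 7 shared subunits were higher as deposited, against 19.9% of all tested genes, with a median log2 fold change of 0.65. The count was 3 after centring, 4 with quantile normalization and 4 without S2 or without C2. Rpb6 (gene 6969), common to all the enzymes, had 115, 145 and 125 FPKM in S and 57.7, 79.1 and 76.0 FPKM in C, a log2 fold change of 0.86 (SE 0.14, limma adjusted p = 0.00398). Rpb5 (gene 5015), the most abundant shared message, had 146, 158 and 144 FPKM in S and 99.0, 112 and 108 FPKM in C. The log2 fold change of Rpb5 was smaller, at 0.49 (SE 0.10, limma adjusted p = 0.00818), and after centring it was 0.21 and not called (limma adjusted p = 0.16). With quantile normalization Rpb5 was called (limma adjusted p = 0.0320). Rpb8 (gene 5247) had 40.9, 49.4 and 42.0 FPKM in S and 28.5, 23.6 and 26.8 FPKM in C. Rpb10 (gene 7645), a zinc-binding subunit, had 52.5, 63.0 and 54.4 FPKM in S and 36.3, 36.3 and 35.2 FPKM in C. Both were well separated, with log2 fold changes of 0.74 for Rpb8 (SE 0.13, limma adjusted p = 0.00565) and 0.65 for Rpb10 (SE 0.12, limma adjusted p = 0.00565). Rpb12 (gene 9421), also zinc-binding, had 52.5, 58.3 and 47.5 FPKM in S and 24.0, 28.9 and 42.9 FPKM in C. C3 came close to the lowest S library, and the log2 fold change was 0.76 (SE 0.19, limma adjusted p = 0.0215). Rpc40 (gene 10907) and Rpc19 (gene 7979), which take the place of Rpb3 and Rpb11 in RNA polymerases I and III, were higher by 0.43 (SE 0.11, limma adjusted p = 0.0249) and 0.55 (SE 0.12, limma adjusted p = 0.0117). After centring Rpb12, Rpc40 and Rpc19 were not called (limma adjusted p = 0.150, 0.312 and 0.0965). With shared subunits counted in each enzyme, 10 of 12 genes of RNA polymerase I, 10 of 13 of the RNA polymerase II core and 12 of 13 of RNA polymerase III by GO term were higher.

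A factor that scales a whole library cancels in ratios between subunits of that library, so centring leaves them as they are, while quantile normalization can alter them. Ratios were computed for 11 pairs chosen after the values had been seen. Relative to Rpb2, the Rpc2 message stood at log2 ratios between -1.58 and -1.51 in S and between -2.10 and -1.98 in C, a difference of 0.50. Rpa2 over Rpb2 differed by 0.46, Rpa1 over Rpb1 (gene 4341) by 0.52 and Rpc1 over the same Rpb1 row by 0.62. For each catalytic subunit of RNA polymerases I and III, the ratio to its RNA polymerase II counterpart was thus above every C library in every S library. How many of all tested genes would do the same was not counted.

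Within RNA polymerase II the ratios to Rpb2 moved the same way. Rpb11 over Rpb2 lay between -2.60 and -2.51 in S and between -3.77 and -3.15 in C, a difference of 0.98. The difference was 0.97 for Rpb7, 0.93 for Rpb9, 1.21 for Rpb4 and 0.58 for Rpb3. In these 9 pairs the groups did not overlap, and each gave an exact two-sided permutation p of 0.1, the smallest that 3 libraries against 3 allow, or 0.122 after Benjamini-Hochberg adjustment over the 11 pairs. Because the pairs were picked with the levels known, and most share Rpb2, these p-values cannot measure chance. The share of all tested genes that would separate the groups in such ratios was not computed. Rpb2 and gene 4341 were both at -0.13, against a median of 0.21 over all tested genes. A typical gene would therefore also tend to rise relative to them, so the separation is not shown to be particular to the subunits. Rpb1 (gene 4341) over Rpb2 differed by 0.0060 (exact permutation p = 0.9), and the upstream over the downstream Rpb1 row by 0.015 (exact permutation p = 0.7). In those last pairs the groups overlapped. After quantile normalization, tried once the data had been seen, the differences of the 9 separated pairs were smaller and all positive, between 0.33 and 0.85, and that of Rpb11 over Rpb2 was 0.72.

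**Figure D3:**
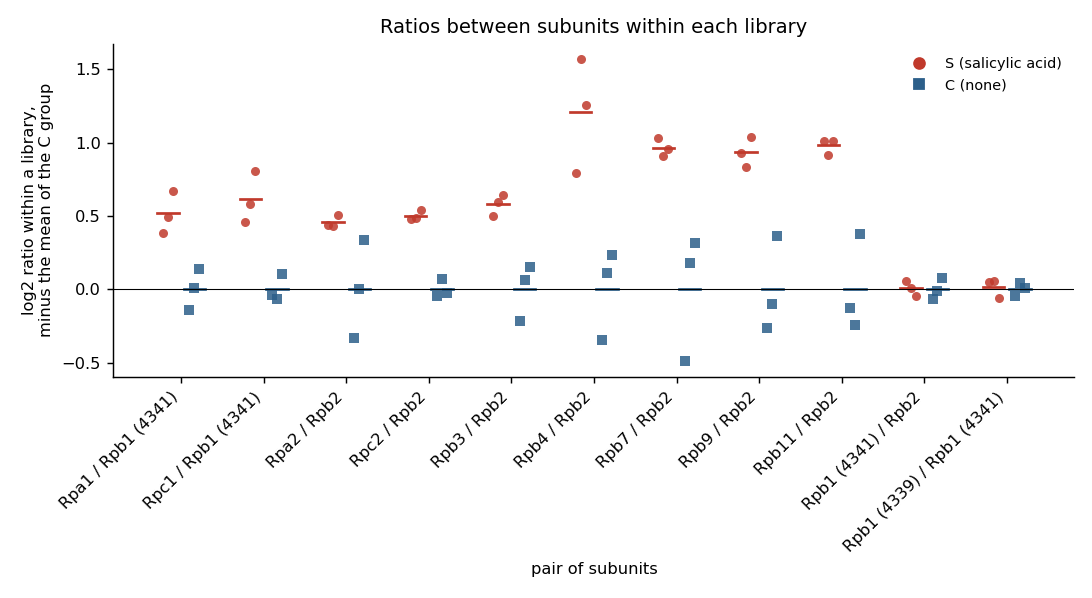
Log2 ratio of FPKM between subunits of the same library for the 11 pairs, drawn as the distance from the mean of the C group, with 1 point per library, S left of C, and a bar at each group mean. The groups are apart in 9 pairs and overlap for Rpb1 over Rpb2 and for the Rpb1 rows.

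The size of the difference followed coding length and level among the subunits. The tested genes were cut by coding length into 5 bins of near equal size. The 12 subunits in the shortest bin, of 147 to 684 bases, were all higher, against 33.1% of all genes in that bin, and their median log2 fold change was 0.81, against 0.34 for the bin. Of the 6 subunits in the longest bin, of 2427 to 15723 bases, 2 were higher, against 9.42% of the bin, with a median of 0.34 for the subunits and 0.08 for the bin. Across genes, which are not independent replicates, Spearman's rho of log2 fold change with coding length was -0.77 over the 29 subunits and -0.22 over all 6113 tested genes. With mean FPKM it was -0.73 over the subunits and -0.33 over all tested genes. The same libraries give the level and the difference, and among the subunits the longer genes were also the more abundant (rho 0.51, against -0.015 over all tested genes), so length and level cannot be told apart here.

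The subunits were also set against genes of like length and, separately, against genes of like level. The log2 fold change of 26 of 29 exceeded the median of its length bin, and 26 exceeded the median of its decile of mean FPKM. A bin has as many genes above its median as below it, and length and level were not matched together. The decile medians ran between 0.40 for the least abundant genes and -0.065 for the most abundant, and that last decile holds Rpb1 (gene 4341) and Rpb2. The part of length and level in the results was not tested.

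**Figure D4:**
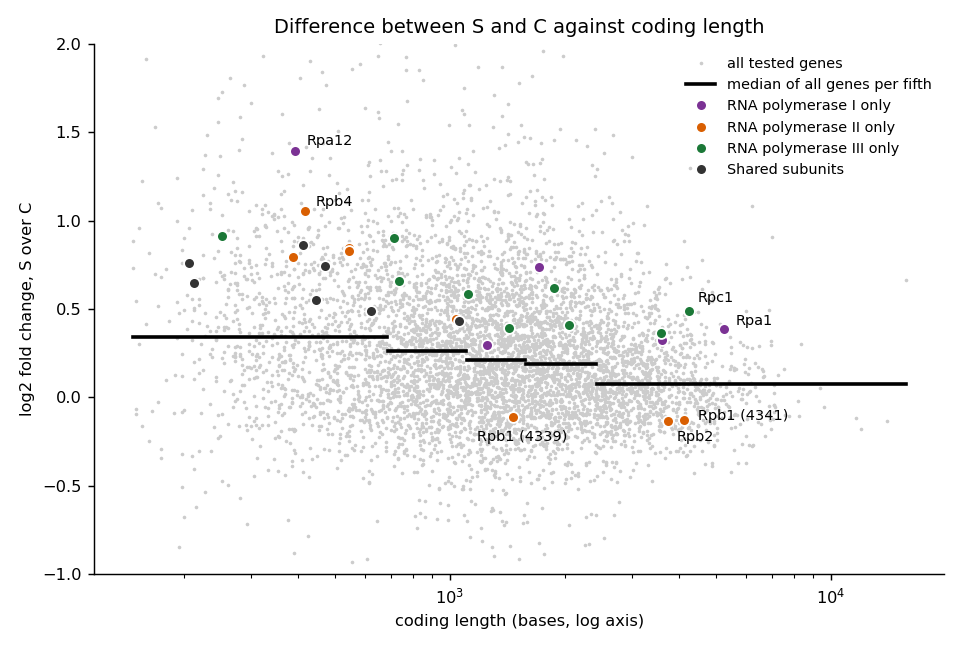
Log2 fold change of S over C against coding length in bases on a log axis, with the subunit genes in colour, all tested genes in grey and a line at the median of all genes in each of the 5 length bins, while 29 genes beyond -1 to 2 are not drawn. The 12 subunits of the shortest bin all lie above its median of 0.34, and the Rpb1 rows and Rpb2 lie below 0.

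The proteins that bring the polymerases to their promoters are set beside the subunits here by their counts, and no difference between the lists was tested. Of 30 basal transcription factor genes of RNA polymerase II on their own KEGG map, 7 were higher, against 19.9% of all tested genes, and 1 was lower, against 3.03%, with a median of 0.30. The higher count is near that of all genes, and it was 1 after centring and 3 with quantile normalization. The large chain of TFIIA (gene 6801), which steadies the TATA-binding protein on DNA, averaged 158 ± 5.81 FPKM in S and 104 ± 8.65 FPKM in C (SD, n = 3 each), a log2 fold change of 0.61 (SE 0.10, limma adjusted p = 0.00377). The TATA-binding protein (gene 8551), used by all the polymerases, averaged 295 ± 17.3 FPKM in S and 215 ± 20.5 FPKM in C, a log2 fold change of 0.46 (limma adjusted p = 0.0108). TAF10 of TFIID (gene 6137) was higher by 0.57 (limma adjusted p = 0.00849). TFIIA was called under both other scalings, whereas after centring the TATA-binding protein (limma adjusted p = 0.322) and TAF10 (limma adjusted p = 0.105) were not. With quantile normalization the TATA-binding protein (limma adjusted p = 0.0255) and TAF10 (limma adjusted p = 0.0489) were called. TFIIB (gene 3857), which bridges the TATA-binding protein and RNA polymerase II, went the other way. It had 106, 109 and 103 FPKM in S and 149, 149 and 124 FPKM in C, a log2 fold change of -0.41 (SE 0.10, limma adjusted p = 0.0215), and it was lower under both other scalings too, but it lost its call without S1, S2, S3 or C2.

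The smaller lists held few calls, to be read against the 19.9% of all tested genes that were higher. Of 10 Mediator genes, 2 were higher, Med11 (gene 4461, log2 fold change 0.75, limma adjusted p = 0.0169) and Med4 (gene 7177, log2 fold change 0.56, limma adjusted p = 0.0376). Of 10 elongation genes 3 were higher, among them elongin A (gene 7789, log2 fold change 0.60, limma adjusted p = 0.0126). Of 3 genes described as RNA polymerase I factors, the one described as UAF (gene 4641) was higher, by 0.88 (limma adjusted p = 0.0253). Med11, Med4, elongin A and UAF all lost their calls after centring (limma adjusted p = 0.0674, 0.148, 0.0628 and 0.0692) and after quantile normalization (limma adjusted p = 0.0885, 0.328, 0.136 and 0.125). Of 6 RNA polymerase III factors the one called was the TATA-binding protein already named. Brf1 (gene 3733), its partner in TFIIIB, was at 0.36 (limma adjusted p = 0.0653), and Bdp1 (gene 7065), the remaining TFIIIB part, at -0.25 (limma adjusted p = 0.109). Bdp1 was called lower after centring (limma adjusted p = 0.0165) and after quantile normalization (limma adjusted p = 0.0277).

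**Figure D5:**
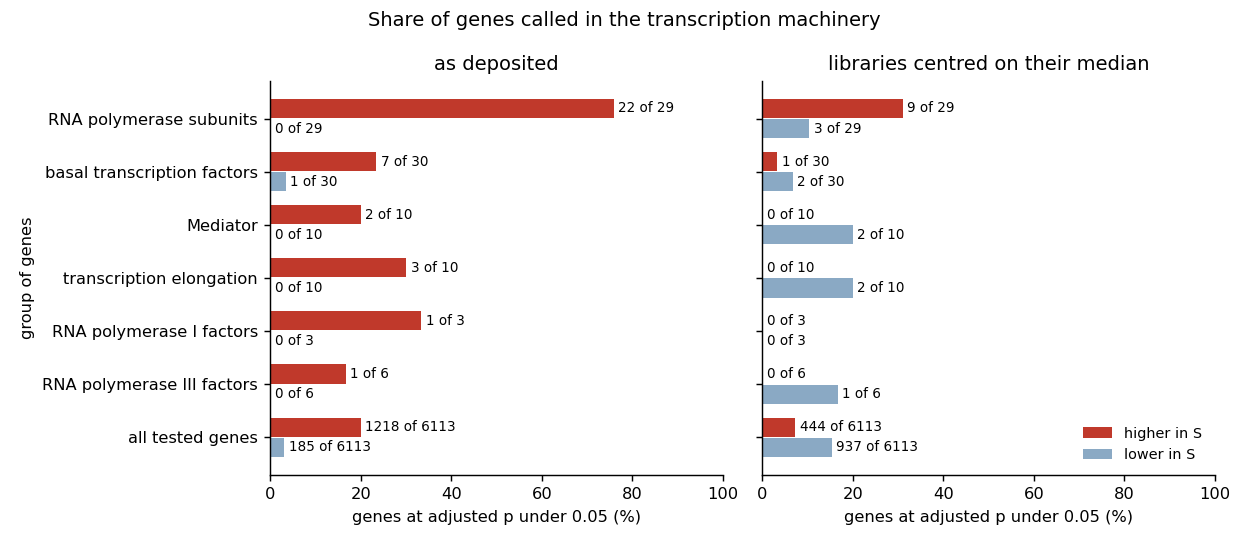
Share of genes, in percent, called higher (red) or lower (blue) in S at a limma adjusted p under 0.05 in each list and over all tested genes, as deposited on the left and with libraries centred on their median on the right. As deposited 22 of 29 subunit genes and 7 of 30 basal factors are higher, and after centring 9 of 29 and 1 of 30.

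The single-subunit mitochondrial RNA polymerase (gene 11869), which is unrelated to the nuclear enzymes and transcribes mitochondrial DNA, averaged 101 ± 3.87 FPKM in S and 80.5 ± 12.6 FPKM in C (SD, n = 3 each). The difference of 0.34 was not called (limma adjusted p = 0.0733). No gene matched the words used for Maf1, the repressor of RNA polymerase III. Another list held 13 genes outside the map that were picked by words of their descriptions, most of which name an RNA polymerase. Of these, 4 were higher, against 19.9% of all tested genes. They were gene 6239, elongins A and C (genes 7789 and 6011), which are also in the elongation list, and gene 365. Gene 365 is described only as RPA3, and its description names no RNA polymerase. The count of higher genes was 0 after centring, with quantile normalization or without S2. After centring 1 was lower, against 15.3% of all tested genes. One of these 4, gene 6239, is described as Rpb4 of RNA polymerase II without a KEGG ortholog. It had 21.9, 28.0 and 22.4 FPKM in S and 17.8, 13.3 and 12.9 FPKM in C, a log2 fold change of 0.72 (SE 0.17, limma adjusted p = 0.0161), and it was not called after centring (limma adjusted p = 0.06) or quantile normalization (limma adjusted p = 0.0939). Gene 7659, described as a large subunit of RNA polymerase II and also without an ortholog, was at -0.053 as deposited (limma adjusted p = 0.767). It was called lower after centring, at -0.33 (limma adjusted p = 0.0444), but not after quantile normalization (limma adjusted p = 0.0753).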

How the data were processed

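RNA of 3 SA-treated (S) and 3 untreated (C) libraries of P. rhodozyma was sequenced by the authors, whose steps were trimming (fastp), mapping to a P. rhodozyma genome (HISAT2) and estimation of FPKM (StringTie). The deposited FPKM values were used as given. Their unit carries no read counts, so the depth behind a value is unknown and a count model was not run. The deposited fold changes, p-values, q-values and calls of the authors were not used, and 0 value columns were left unmapped. Strand use in the counting is not stated, but 0 subunit genes overlap a neighbouring gene.

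The 6113 of 6249 genes whose mean over the 6 libraries reached 0.5 FPKM were tested. The groups were compared on log2(FPKM + 0.1) using limma (version 3.58.1, R 4.3.3), its variance prior following mean level, and Benjamini-Hochberg adjustment over all tested genes, and called at an adjusted p under 0.05. Fold changes on this scale understate changes of low genes. Ratios, bins and figures were made in Python 3.11.15. Single ratios were compared by exact permutation. On simulated data of 6113 genes with known changes between S and C, the fit called 51 of 100 genes at a true log2 change of 0.58, 89 of 100 at 1 and 9 of 5913 unchanged genes. The simulated noise was independent between genes and held no shift of whole libraries, unlike the deposited values. The simulation therefore cannot show how many calls on those values depend on the scaling.

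Every gene on the map was named, and of each related list up to 4 genes with the smallest adjusted p. Genes 6239 and 7659 were named for their descriptions, after their values were seen. The related lists were basal transcription factors, Mediator, elongation, RNA polymerase I factors, RNA polymerase III factors, mitochondrial RNA polymerase, Maf1 and genes outside the map picked by words of their descriptions. Some genes stand in several lists. Subunits and lists were chosen with earlier results of these data known. The alternatives were other pseudocounts (1 and 0.01), other limits on low values (none and 1 FPKM), centring on the library median, quantile normalization, no trend, a replicate block and leaving out each library.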

Additional observations from a re-analysis of the deposited data

How the results depend on the processing

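The count of subunit genes higher in S was 22 with either other pseudocount and either other limit on low values, and 20 without the mean-variance trend. It was 9 with libraries centred on their median and 10 with quantile normalization, and leaving out 1 library gave 9 to 23. The lowest was without S2, as it was over all tested genes. The count lower in S was 3 after centring and 0 to 1 over the left-out libraries, the 1 being Rpb2 without C3. Centring and leaving out a library together, chosen after seeing the data, gave 0 to 12 higher and 0 to 3 lower. By enzyme, RNA polymerase I had 0 higher after centring and 0 after quantile normalization (left-out libraries, 0 to 4), RNA polymerase II 3 higher after quantile normalization (3 to 5) and 3 lower after centring (0 to 1), RNA polymerase III 2 higher after centring and 3 after quantile normalization (2 to 7), and the shared subunits 3 and 4 (4 to 7). Over all tested genes the 1218 higher became 444 centred and 404 after quantile normalization (501 to 1338), and the 185 lower became 937, 518 and, without the trend, 80 (67 to 293). The sign changed for gene 7043 without C1 (left-out libraries, -0.0056 to 0.46), for the Mediator gene 11871 with quantile normalization (-0.045), and for the RNA polymerase I factor gene 9975 when centred (-0.19), with quantile normalization (-0.085) and without C3 (left-out libraries, -0.067 to 0.17). The cause of these changes was not tested. The fit with a replicate block called 21 subunit genes higher and 0 lower. Same-numbered libraries deviated together with correlations of -0.017, 0.16 and -0.0034, so the replicate numbers were not treated as pairs. With 3 libraries a group, ratios could not reach an exact p under 0.1.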

Other observations

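Some subunit genes lie beside other genes of the transcription machinery. The Rpc53-type gene 7179 is separated by 48 bases from Med4 (gene 7177), and the Rpb7 gene 893 by 270 bases from gene 891, described as the RING subunit of TFIIH. The mitochondrial RNA polymerase (gene 11869) is the next gene after Rpc25 (gene 11867). The 29 subunit genes lie on 9 contigs.

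Gene 9289, which shares the KEGG ortholog of the TFIIE beta chain, averaged 5.05 ± 1.39 FPKM in S and 2.40 ± 0.90 FPKM in C (SD, n = 3 each), a log2 fold change of 1.07 (SE 0.30, limma adjusted p = 0.0297). The gene described as TFIIE beta (gene 10643) averaged 51.7 ± 6.29 FPKM in S and 38.0 ± 1.45 FPKM in C, a log2 fold change of 0.43 (SE 0.12, limma adjusted p = 0.0318). The TFIIE alpha chain (gene 9115) was higher by 0.67 (SE 0.19, limma adjusted p = 0.031). These 3 genes were named after their values were seen, and none passed with centred libraries (limma adjusted p between 0.0619 and 0.299) or with quantile normalization (limma adjusted p between 0.103 and 0.209).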
